A study of Mus musculus with 120 samples.

Results

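The hippocampus of 175QK772T mice was compared with that of 175Q mice at 26 weeks of age, across all genes. The comparison rests on 8 of the 120 libraries of the series, chosen by the region, genotype and age in their labels: 4 from 175QK772T mice and 4 from 175Q mice. The mice model spinocerebellar ataxia type 1, and all are C57BL/6J. A 175Q mouse has 1 knock-in Atxn1 allele with a lengthened CAG repeat and 1 allele of 2 glutamine codons (Atxn1 175Q/2Q), and a 175QK772T mouse has the same pair of alleles with the K772T substitution added to the expanded one (Atxn1 175QK772T/2Q). Both mutant groups therefore carry the expansion, and 4 WT hippocampi of the same age serve as the reference for levels. The labels' descriptions of the 26-week libraries name both lines by another repeat length than their genotype field does, and the names of that field are used here. Replicates 1 and 2 of 175QK772T are female and 3 and 4 male, whereas replicates 1 and 2 of 175Q are male and 3 and 4 female. Every mouse also gave 4 other brain regions, and other mice gave hippocampus at 10 weeks.

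Ataxin-1 is a nuclear protein that binds transcription factors and RNA, and its best-known partner is the repressor Capicua. A glutamine tract encoded by the CAG repeat is lengthened in spinocerebellar ataxia type 1, a disease known for the loss of cerebellar Purkinje cells that also touches memory and mood. The protein enters the nucleus by a nuclear localization signal near its C terminus, and K772T replaces a lysine within it. The comparison asks which hippocampal genes have another level when the expanded protein carries that altered signal.

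The 12 hippocampus libraries held 30186577 to 53145285 counted read pairs. In a principal component analysis the first component held 36.7% of the variance, with WT libraries between -45.4 and -42.3, 175QK772T libraries between 5.1 and 9.15 and 175Q libraries between 34 and 38.6, so that the 3 genotypes did not overlap on it. Transcripts of the choroid plexus varied between libraries of every genotype: Ttr, its main secreted protein, lay at 18.5 to 2060 CPM in WT, 18.4 to 884 in 175QK772T and 28.9 to 7320 in 175Q. It exceeded 500 CPM in 1 library of each genotype (WT replicate 2, 175QK772T replicate 4 and 175Q replicate 2), and counts below are also given without those 3. CPM are counts relative to the library total after TMM scaling. Log2 fold changes (± standard error) were fitted by edgeR (quasi-likelihood, genotype and sex as terms, 4 mice a group), and p-values were adjusted by Benjamini and Hochberg over 19809 genes. A gene was called at an adjusted p below 0.05. Values per library are listed in the order of replicates 1 to 4. Levels were measured in bulk tissue, so fewer cells of a type and less RNA per cell cannot be told apart.

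Atxn1 itself (ENSMUSG00000046876, GRCm38 chromosome 13, 45549755 to 45965008, minus strand) was read at 109, 103, 101 and 105 CPM in 175QK772T and at 87.6, 83.2, 99.7 and 101 CPM in 175Q. The mutant groups overlap at 101 CPM, and the WT libraries reach from 73.8 to 94 CPM. The difference between the mutants was 0.17 ± 0.07 (edgeR adjusted p = 0.0954), while 175QK772T against WT gave 0.31 ± 0.07 (adjusted p = 0.00488) and 175Q against WT 0.13 ± 0.07 (adjusted p = 0.127). Under 3 alternatives (no filter on low counts, a replicate block, and the 8 mutant libraries alone) Atxn1 passed the threshold between the mutants, with adjusted p-values from 0.0136 to 0.0422. Counts per gene do not tell the expanded allele from the other, nor K772T from its absence, so Atxn1 does not check these labels beyond its level. Of 173 genes tested within 10 Mb of Atxn1, 26 were higher and 9 lower in 175QK772T, which is 20.2% against 15.7% of all genes, and their median log2 fold change was 0.

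In 175QK772T hippocampus 3107 of 19809 genes (15.7%) differed from 175Q: 1759 were higher (8.88%) and 1348 lower (6.8%). Most differences were small, with a median log2 fold change of 0.33 among the rises and -0.27 among the falls, beside 0 over all genes tested. At least 2-fold differences (1 on the log2 scale) were called for 91 rises and 97 falls, 0.949% of genes. For 2642 of the called genes the 4 values of one genotype lay wholly above those of the other. The same held for 3805 of all 19809 genes tested, so a lack of overlap is also found among genes not called. Without 175QK772T replicate 2 the count was 1982, of which 1932 were among the 3107. Without the 3 libraries of highest Ttr it was 2124, of which 1868 were among them. For scale, the same fit called 8073 genes (40.8%) in 175Q against WT, of which 4030 were higher (20.3%) and 4043 lower (20.4%) in 175Q. In 175QK772T against WT it called 3765 (19%), of which 1802 were higher (9.1%) and 1963 lower (9.91%) in 175QK772T. These contrasts share libraries with each other, and no overlap between them is drawn.

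**Figure D1:**
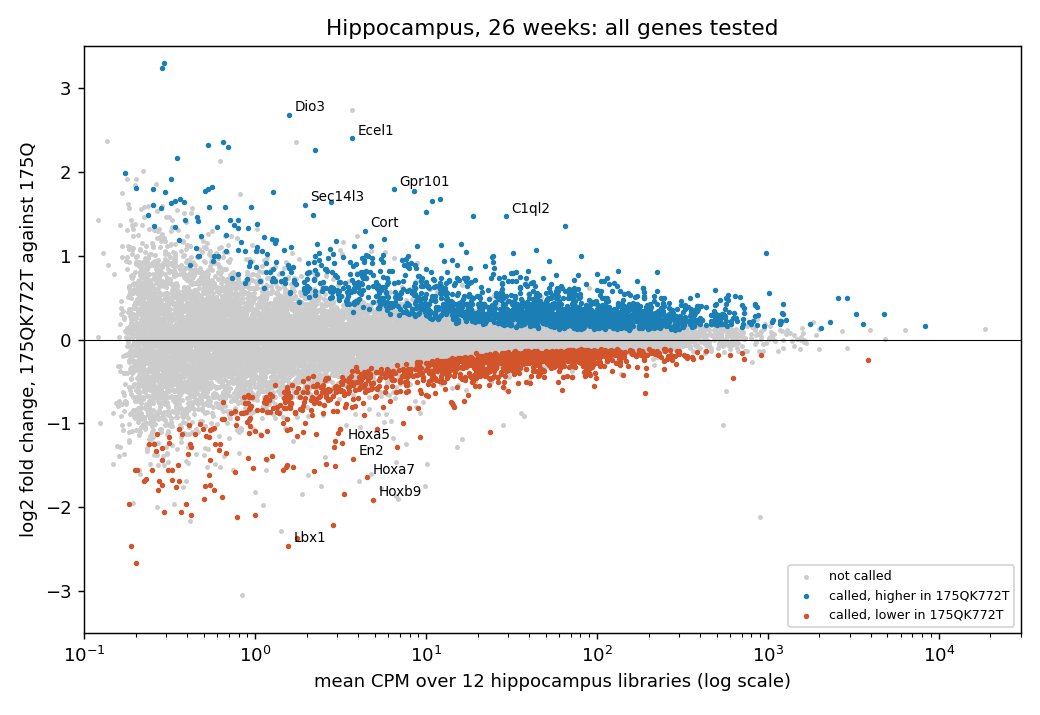
Each point is 1 of 19809 genes, with its mean CPM over the 12 hippocampus libraries on a log axis and its log2 fold change of 175QK772T against 175Q. Blue points are the 1759 genes called higher in 175QK772T, orange the 1348 called lower, grey the rest, and a selection of the genes with the largest called changes is labelled.

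The smallest p-value belonged to Mfge8. It codes for a secreted phagocytosis bridge made by astrocytes (ENSMUSG00000030605, chromosome 7, 79133768 to 79149060, minus strand), and lay at 127, 139, 129 and 139 CPM in 175QK772T and at 69.4, 76.7, 75.5 and 81 CPM in 175Q. The groups were far apart beside their spread, with a log2 fold change of 0.82 ± 0.05 (edgeR adjusted p = 2.59e-06), and WT stood higher than both at 181 to 192 CPM. Crhbp, the binding protein of corticotropin-releasing hormone, was at 14.7, 15.5, 14.3 and 15 CPM in 175QK772T and at 7.27, 5.35, 7.4 and 6.98 in 175Q. Its values did not overlap between the mutants (1.14 ± 0.09, adjusted p = 1.91e-05). Ddn codes for dendrin, a protein of dendrites and postsynaptic sites (ENSMUSG00000059213, chromosome 15, 98803777 to 98809490, minus strand). It lay at 559, 582, 602 and 646 CPM in 175QK772T, at 343, 243, 268 and 318 CPM in 175Q and at 1920 to 2120 CPM in WT. Ddn was higher in every 175QK772T library than in any of 175Q (1.03 ± 0.09, adjusted p = 4.57e-05), at less than the level of any WT library. Other genes among the smallest p-values were Kctd4 (0.58 ± 0.05), the synaptic adhesion gene Mdga1 (1.07 ± 0.09), the Ras effector Rin1 (0.94 ± 0.08), the membrane-type metalloproteinase Mmp17 (0.68 ± 0.06), the tubulin Tubb2b (0.55 ± 0.05) and the microglial receptor-like gene Fcrls (0.78 ± 0.07). Cirbp, the cold-inducible RNA-binding protein, was among them as a fall, at 78.9, 74.3, 95.6 and 93.2 CPM in 175QK772T and at 129, 133, 113 and 125 CPM in 175Q (-0.55 ± 0.05, adjusted p = 5.19e-05).

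The 15 largest rises began with Dio3, whose enzyme inactivates thyroid hormone. The gene (ENSMUSG00000075707, chromosome 12, 110279068 to 110281097, plus strand) was at 1.47, 1.14, 0.898 and 1.55 CPM in 175QK772T against 0.138, 0.0629, 0.228 and 0.325 CPM in 175Q. All 4 values of 175QK772T were above all of 175Q (2.68 ± 0.44, edgeR adjusted p = 0.00127). The 175Q values are near 0, so the size of this fold is uncertain. WT averaged 3.29 CPM, against 1.27 in 175QK772T, and the gene met the mean of 1 CPM through WT. Dio2, which activates the hormone and was not among the 15, also rose, from 20.4 to 25.8 CPM in 175Q to 31.7 to 40.1 CPM in 175QK772T (0.64 ± 0.07, adjusted p = 0.000156). Ecel1, a membrane peptidase of neurons, lay at 5.79, 3.11, 1.86 and 10.5 CPM in 175QK772T and at 1.43, 0.346, 0.933 and 1.11 CPM in 175Q. Its 175QK772T values were the more scattered, yet the groups did not overlap (2.40 ± 0.49, adjusted p = 0.00539). The orphan receptor Gpr101 (1.79 ± 0.39), the ankyrin-repeat gene Ankrd63 (1.77 ± 0.27), the death-receptor family member Tnfrsf25 (1.68 ± 0.28) and the calcium sensor of vesicle release Otof (1.65 ± 0.27) rose by more than 3-fold. Smaller changes within the 15 were those of Sec14l3 (1.61 ± 0.24), Cox6a2, a subunit isoform of cytochrome c oxidase (1.49 ± 0.25), Slc25a34, a mitochondrial carrier (1.20 ± 0.17), and Car9, a carbonic anhydrase (1.20 ± 0.21). Igf2os, an antisense transcript of the Igf2 locus, stood at 6.68, 6.16, 7.83 and 3.22 CPM in 175QK772T, at 1.8, 2.9, 1.43 and 1.67 in 175Q and at 0.345 to 0.636 in WT, so that 175QK772T was the highest of the 3 genotypes (1.64 ± 0.27 against 175Q, adjusted p = 0.00132). The strand setting of the 26-week counts is not given in the sources used here, so reads of Igf2os and of genes on the other strand cannot be told apart. The remaining rises of the 15, C1ql2, Lct, Arc and Cort, belong to lists described below. No one of the 15 rises or 15 falls lost its call under the alternatives run. They were picked from these same libraries for large changes without overlap, which makes a lost call unlikely. Of all 3107 calls, 62.2% to 80.7% stayed with 1 library left out.

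The 15 largest falls included homeobox genes, which code for transcription factors that pattern the embryo and are mostly silent in adult forebrain. Lbx1, a factor of dorsal spinal cord neurons (ENSMUSG00000025216, chromosome 19, 45232684 to 45235812, minus strand), lay at 0.582, 1.25, 0.577 and 0.456 CPM in 175QK772T and at 4.83, 3.27, 3.96 and 3.76 CPM in 175Q. Every 175Q library was above every 175QK772T library, while WT had counts in replicate 3 alone, at 0.028 CPM (175QK772T against 175Q -2.46 ± 0.28, edgeR adjusted p = 0.000156). Barx1 (-1.57 ± 0.20), the motor neuron factor Isl2 (-1.55 ± 0.33) and the midbrain-hindbrain factor En2 (-1.42 ± 0.16) fell as well, with no overlap between the mutants. Outside the homeobox genes, Inmt, an N-methyltransferase (-1.49 ± 0.24), the guanine nucleotide exchange factor gene Arhgef33 (-1.28 ± 0.24), Plin4 of lipid droplets (-1.28 ± 0.30) and the monooxygenase Fmo2 (-1.21 ± 0.18) were among the 15.

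Hox cluster genes, which code for factors that set position along the trunk and hindbrain, made up 5 of the 15 largest falls. The 15 were taken from 1013 falls eligible to be named, a rule that asks for a mean of at least 1 CPM. With WT near 0, Hoxd9 (means of 0.859 CPM in 175QK772T and 4.4 in 175Q) and Lbx1 (0.718 and 3.96) reached that mean through 175Q. The 5 are thus no measure of how often Hox genes fell. All 39 genes of the 4 clusters were then taken as a list, after their values had been seen. Summed over the 39, WT libraries held 0.242 to 0.295 CPM in 3 libraries and 0.151 in the other, 175QK772T libraries 42.8, 49.7, 38.5 and 30.7 CPM and 175Q libraries 82.7, 79.1, 85.4 and 80.8 CPM. The sums thus separate the 3 genotypes without overlap. In read pairs, the WT sums were 7 to 15 per library, against 1199 to 2654 in 175QK772T and 2512 to 4117 in 175Q. Of the 39 genes, 28 passed the filter on low counts, which asks for a minimum count in 4 libraries, and 11 did not. In 20 of the 28 all 4 libraries of 175QK772T and all 4 of 175Q met that minimum, and 8 of these 20 fell in 175QK772T against 175Q (6.8% of all genes fell). The other 8 met it in all 4 libraries of 175Q but not in all of 175QK772T. Their 6 falls, Hoxa9, Hoxc12, Hoxc9, Hoxd10, Hoxd3 and Hoxd4, are therefore genes that were tested because 175Q was high. Of the 28 together 14 fell, 0 rose and 14 did not pass the test, which describes the genes tested and not the clusters as a whole. Without 175QK772T replicate 1 the count of 14 was 9, without 175QK772T replicate 4 it was 7, without 175Q replicate 1 it was 9, without 175Q replicate 3 it was 8, and without the 3 libraries of highest Ttr it was 9.

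Within the clusters the falls were uneven. Hoxa7 (ENSMUSG00000038236, chromosome 6, 52214491 to 52221854, minus strand) lay at 3.13, 3.43, 3.43 and 3.03 CPM in 175QK772T, at 11, 10.6, 9.25 and 9.86 CPM in 175Q and at 0.028 to 0.0983 CPM in WT. Its mutant groups were tight and well apart (-1.64 ± 0.12, edgeR adjusted p = 1.91e-05). Hoxb9 on chromosome 11 was at 3.49, 4.68, 2.15 and 2.28 CPM in 175QK772T and at 9.99, 12.1, 10.9 and 13 in 175Q (-1.91 ± 0.18, adjusted p = 0.000156), with no count in WT. Hoxd9 on chromosome 2 was at 0.95, 1.33, 0.449 and 0.707 CPM in 175QK772T and at 4.07, 4.41, 4.83 and 4.27 in 175Q (-2.37 ± 0.23, adjusted p = 0.00016), also with no count in WT. Both genes were apart between the mutants in every library, and Hoxd8 (-1.84 ± 0.23), Hoxa5 (-1.23 ± 0.16), Hoxd4 (-1.88 ± 0.30) and Hoxa9 (-2.05 ± 0.44) fell likewise. Other members did not pass the test: Hoxc13 averaged 4.02 CPM in 175QK772T and 4.41 in 175Q (-0.13 ± 0.19, adjusted p = 0.687), and Hoxc6 averaged 2.56 and 2.37 CPM (0.07 ± 0.22, adjusted p = 0.877). Hox genes of a cluster lie close together with antisense transcripts between them, and the strand setting of these counts is not given in the sources used here.

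**Figure D2:**
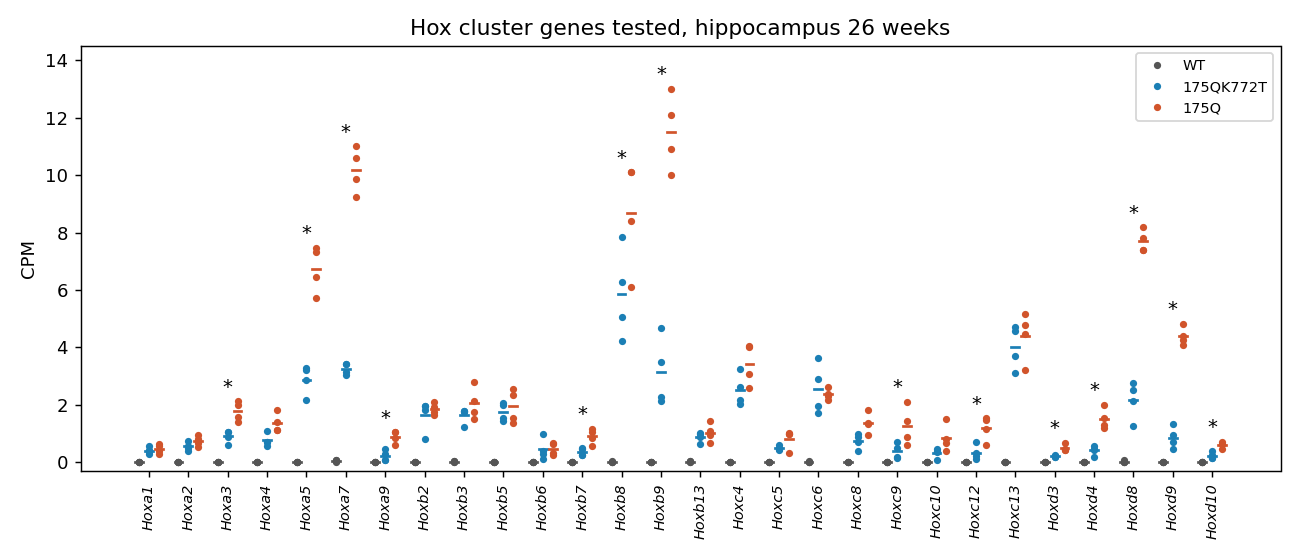
CPM of the 28 Hox genes tested, 1 point per library and a bar at each group mean, in WT (grey), 175QK772T (blue) and 175Q (orange), with an asterisk over the 14 genes called lower in 175QK772T than in 175Q. WT points lie at or close to 0 for every gene, and the mutants are far apart for Hoxa7, Hoxb9, Hoxd8 and Hoxd9 and overlap for Hoxc6 and Hoxc13.

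Capicua, encoded by Cic, represses genes of the receptor tyrosine kinase and MAP kinase pathway by binding the octamer TGAATGAA or TCAATGAA, and ataxin-1 forms a stable complex with it. Of 14 tested genes known as its targets, 12 rose in 175QK772T against 175Q (8.88% of all genes rose) and 0 fell, with a median log2 fold change of 0.42 beside 0 over all genes. Without the 3 libraries of highest Ttr 10 rose. Cic itself averaged 188 CPM in 175QK772T and 179 in 175Q (0.07 ± 0.06, edgeR adjusted p = 0.454).

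Etv4, an ETS factor and a standard readout of Capicua (ENSMUSG00000017724, chromosome 11, 101769742 to 101785371, minus strand), lay at 11.1, 12.9, 9.91 and 8.99 CPM in 175QK772T, at 4.37, 4.69, 5.45 and 5.13 CPM in 175Q and at 9.02 to 12.5 CPM in WT. The 175QK772T values spanned the WT range and were all above 175Q (1.12 ± 0.10, edgeR adjusted p = 4.75e-05). Its relative Etv5 was at 76.1, 81.5, 77 and 64.8 CPM in 175QK772T and at 51.7, 48, 59 and 52.6 CPM in 175Q, again with no overlap (0.50 ± 0.06, adjusted p = 0.000157). The MAP kinase phosphatases Dusp6 (42.3, 38.9, 34.7 and 28.7 against 23.5, 24.2, 22.9 and 23.9 CPM) and Dusp4 (7.79, 10.6, 8.89 and 7.23 against 4.7, 5.35, 5.16 and 4.08 CPM) rose by 0.61 ± 0.09 and 0.84 ± 0.12. In neither did the mutants overlap. The cyclins Ccnd1 (0.51 ± 0.06) and Ccnd2 (0.31 ± 0.05), the adaptor gene Shc3 (0.43 ± 0.06), Etv1 (0.41 ± 0.06) and the pathway inhibitors Spry4 (0.52 ± 0.10), Spred1 (0.13 ± 0.04), Spred2 (0.21 ± 0.05) and Spred3 (0.28 ± 0.07) made up the rest of the 12. Spry2 (0.20 ± 0.07, adjusted p = 0.0541) and Spry1 (0.16 ± 0.10, adjusted p = 0.333) did not pass.

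Promoters of these genes were read because the members moved together. RefSeq's promoter table for GRCm38.p6 (250 bases before to 50 after the start) had an entry for 8 of the 15 list genes, and the octamer stood on either strand in 2 of the 8 (25%), Spred3 and Spry2, against 666 of all 32851 promoters (2.03%). It was also found in the promoter of Fosb, 1 of 9 immediate early genes with an entry. In the sequences below, each given 5′ to 3′ on the gene's strand, capitals mark the octamer or its reverse complement, whose first base lies 10, 54 and 3 bases before the start. The regions are chr7:29168598-29168897, chr14:105896770-105897069 and chr7:19309996-19310295, all on the minus strand.
Spred3: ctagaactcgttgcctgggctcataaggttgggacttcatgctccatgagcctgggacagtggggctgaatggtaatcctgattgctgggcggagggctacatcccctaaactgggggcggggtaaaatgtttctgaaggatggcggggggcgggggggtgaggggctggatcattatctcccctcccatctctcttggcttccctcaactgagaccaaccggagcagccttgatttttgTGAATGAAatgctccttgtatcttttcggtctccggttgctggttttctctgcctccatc
Spry2: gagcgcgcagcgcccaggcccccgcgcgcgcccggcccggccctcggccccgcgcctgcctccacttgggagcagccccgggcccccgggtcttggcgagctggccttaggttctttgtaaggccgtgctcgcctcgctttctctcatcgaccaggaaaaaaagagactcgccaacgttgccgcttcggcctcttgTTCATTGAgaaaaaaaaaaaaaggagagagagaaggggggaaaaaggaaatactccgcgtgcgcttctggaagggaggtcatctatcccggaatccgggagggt
Fosb: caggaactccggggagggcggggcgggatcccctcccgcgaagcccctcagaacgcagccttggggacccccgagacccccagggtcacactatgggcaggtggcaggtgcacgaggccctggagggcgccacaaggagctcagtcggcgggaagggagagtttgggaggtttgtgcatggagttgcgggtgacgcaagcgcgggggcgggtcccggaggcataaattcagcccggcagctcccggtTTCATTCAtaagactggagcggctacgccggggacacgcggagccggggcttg
The match is a description of these letters and not of a binding site. The list holds known targets of a factor that binds this octamer, so a share above that of all promoters says nothing about these data. Spred3, whose window holds TGAATGAA, was at 87.2, 83.1, 81 and 76.2 CPM in 175QK772T and at 67.7, 56.5, 70.7 and 75.2 CPM in 175Q, with neighbouring extremes but no overlap (edgeR adjusted p = 0.0165). Etv5 and Dusp6 had an entry without the octamer in this window and rose by more.

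Postsynaptic and plasticity genes, which build the receptor scaffold of excitatory synapses and adjust its strength, rose nearly throughout: 13 of 14 were higher in 175QK772T and 0 lower, with a median log2 fold change of 0.43 (8.88% of all genes rose). The count was 13 also without the 3 libraries of highest Ttr. Camk2a, the kinase that records calcium entry during potentiation, lay at 2160, 2120, 2100 and 2070 CPM in 175QK772T, at 1640, 1360, 1510 and 1470 CPM in 175Q and at 3870 to 4350 CPM in WT. The 3 genotypes were apart in every library (0.50 ± 0.06 between the mutants, edgeR adjusted p = 0.000147). Nrgn, which holds calmodulin in spines, was at 545, 598, 569 and 516 CPM in 175QK772T and at 419, 370, 382 and 372 CPM in 175Q (0.53 ± 0.07, adjusted p = 0.000425). The scaffold genes Shank1, Shank2 and Shank3 (0.41 ± 0.07, 0.46 ± 0.05 and 0.39 ± 0.07), Dlg4 (0.30 ± 0.05) and Homer1 (0.49 ± 0.07) rose together. The growth factor Bdnf (24.4, 30.7, 25.7 and 22.3 against 19.2, 12.7, 18.1 and 14.3 CPM) rose by 0.67 ± 0.12 (adjusted p = 0.00191), and its receptor gene Ntrk2 by 0.19 ± 0.05 (adjusted p = 0.0127). Camk2b, the list's other kinase subunit, did not pass (0.19 ± 0.07, adjusted p = 0.073).

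Glutamate receptor genes rose in 8 of 14 cases (8.88% of all genes) and fell in 0, with a median of 0.26. The metabotropic receptor gene Grm3 lay at 44.5, 41.1, 47.3 and 40.9 CPM in 175QK772T and at 26, 29.5, 33.1 and 27.7 CPM in 175Q, without overlap (0.58 ± 0.07, edgeR adjusted p = 0.000282). Grm2 (0.48 ± 0.12) and Grm5 (0.24 ± 0.05) rose too. Among NMDA receptor subunits Grin2a (0.43 ± 0.06) and Grin2b (0.28 ± 0.06) rose, while the obligate subunit Grin1 averaged 488 CPM in 175QK772T and 456 in 175Q (0.10 ± 0.06, adjusted p = 0.329). Of the AMPA receptor subunits Gria1 rose (679, 631, 664 and 652 against 563, 474, 511 and 562 CPM, 0.32 ± 0.06), and Gria2 averaged 986 and 970 CPM (0.02 ± 0.05, adjusted p = 0.8). Of 12 presynaptic release genes 6 rose, among them Unc13a, which primes vesicles (0.53 ± 0.07), Syn2 (0.42 ± 0.05) and the vesicular glutamate transporter gene Slc17a7 (0.39 ± 0.06), whereas the fusion proteins' genes Snap25 (0.06 ± 0.05), Vamp2 (0.04 ± 0.05) and Syt1 (0.08 ± 0.05) did not pass. Without the 3 libraries of highest Ttr 4 of the presynaptic genes rose.

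Ion channel lists moved in part. Potassium channel genes rose in 6 of 16 cases (median 0.18), where 8.88% of all genes rose, among them Kcnh3 (0.52 ± 0.08) and the fast-spiking channel gene Kcnc1 (0.42 ± 0.07). The count was 3 without 175Q replicate 2, without the 3 libraries of highest Ttr, and in the 8 mutant libraries alone. Calcium handling genes rose in 6 of 14 (median 0.14), with the T-type channel gene Cacna1g at 152, 140, 140 and 134 CPM in 175QK772T and 111, 101, 113 and 108 CPM in 175Q (0.38 ± 0.06, edgeR adjusted p = 0.0011). WT averaged 98.7 CPM for Cacna1g, so that the 175QK772T mean was the highest of the 3. The calcium count was 2 in the 8 libraries alone, without 175QK772T replicate 1, without 175QK772T replicate 3, without 175Q replicate 4 and without the 3 libraries of highest Ttr, and 3 without 175QK772T replicate 4.

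Immediate early genes, which neurons switch on within minutes of activity, rose in 7 of 11 cases tested and fell in 0, with a median of 0.77 (8.88% of all genes rose). Arc, a regulator of AMPA receptor traffic (ENSMUSG00000022602, chromosome 15, 74669083 to 74672570, minus strand), lay at 93.9, 79.3, 47.6 and 31.8 CPM in 175QK772T and at 21.8, 25.5, 23.7 and 25.3 CPM in 175Q. Its 175QK772T values were widely spread, with replicates 1 and 2 highest, and all lay above 175Q (1.35 ± 0.26, edgeR adjusted p = 0.00367). Fos followed the same replicates, at 27, 23.2, 7.38 and 6.48 CPM in 175QK772T and at 3.66, 5.19, 3.23 and 9.05 CPM in 175Q, and the groups overlapped (1.52 ± 0.46, adjusted p = 0.0393). Fosb (14.2, 15.4, 5.87 and 6.39 against 5.87, 4.41, 4.6 and 6.5 CPM), Junb (36.2, 37.9, 19.5 and 17.6 against 14.8, 14.4, 10 and 18.5 CPM), Egr4 and Nr4a1 rose with overlapping groups as well. Egr1 did not overlap (112, 103, 67.3 and 57.5 against 46.7, 51.4, 46.2 and 53 CPM, 0.77 ± 0.16, adjusted p = 0.00625). In Arc, Fos, Fosb, Junb and Egr1 the 2 female 175QK772T mice were the highest. Without 175QK772T replicate 1, 3 of the 11 genes rose (list median 0.64), without 175QK772T replicate 2, 2 rose (0.69), and without 175Q replicate 3, 3 rose (0.70). The part of these mice in the result was not tested further. Npas4 was at 18.1, 15.8, 9.14 and 13.4 against 8.24, 9.06, 9.06 and 10.9 CPM and did not pass (0.60 ± 0.22, adjusted p = 0.0823).

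Of 15 neuropeptide genes 11 were higher and 0 lower, with a median of 0.66 (8.88% of all genes rose). The count was 9 without the 3 libraries of highest Ttr. Cort, the somatostatin relative cortistatin, lay at 3.86, 5.96, 4.3 and 4.74 CPM in 175QK772T and at 2.28, 1.51, 1.85 and 2.04 in 175Q (1.3 ± 0.16, edgeR adjusted p = 0.000213). Npy was at 23.1, 24.7, 23.2 and 24.8 CPM in 175QK772T, at 15.7, 10.5, 13.4 and 13.4 in 175Q and at 33.5 to 42.2 in WT (0.85 ± 0.10, adjusted p = 0.000214). For both genes each 175QK772T library was above each 175Q library. Tac1, the substance P precursor, rose by 0.88 ± 0.11 and Sst by 0.73 ± 0.11. The activity-linked Nptx2 (13.8, 15.7, 10.7 and 8.42 against 5.8, 3.24, 7.2 and 5.75 CPM) and Vgf (87.2, 112, 90 and 86.9 against 70.4, 48.7, 59.6 and 59.3 CPM) rose by 1.13 ± 0.18 and 0.66 ± 0.10. Crh, whose binding protein gene Crhbp is named above, rose by 1.58 ± 0.27 from a 175Q mean of 0.385 CPM to 1.17 CPM. The opioid precursors Penk (1.04 ± 0.26) and Pdyn (0.56 ± 0.15) rose too, whereas the granin gene Scg2 (-0.08 ± 0.06, adjusted p = 0.388) and Nts (-0.17 ± 0.14, adjusted p = 0.436) did not pass.

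Genes of GABAergic interneurons, several of them the same peptides, rose in 9 of 12 cases (median 0.42), where 8.88% of all genes rose. The count was 8 without the 3 libraries of highest Ttr. The GABA-synthesis genes Gad1 (313, 289, 291 and 295 against 266, 241, 239 and 258 CPM, 0.24 ± 0.06) and Gad2 (0.28 ± 0.06) rose, and so did the peptide genes Cck (0.66 ± 0.09) and Vip (0.56 ± 0.11) beside Sst and Npy. Differences between genes were not tested. Pvalb was at 20.7, 27.6, 25.6 and 18.1 CPM in 175QK772T and at 19.3, 21.3, 18.3 and 15.1 in 175Q, with overlap (0.32 ± 0.14, edgeR adjusted p = 0.155). The vesicular GABA transporter gene Slc32a1 did not pass either (0.13 ± 0.09, adjusted p = 0.344).

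**Figure D3:**
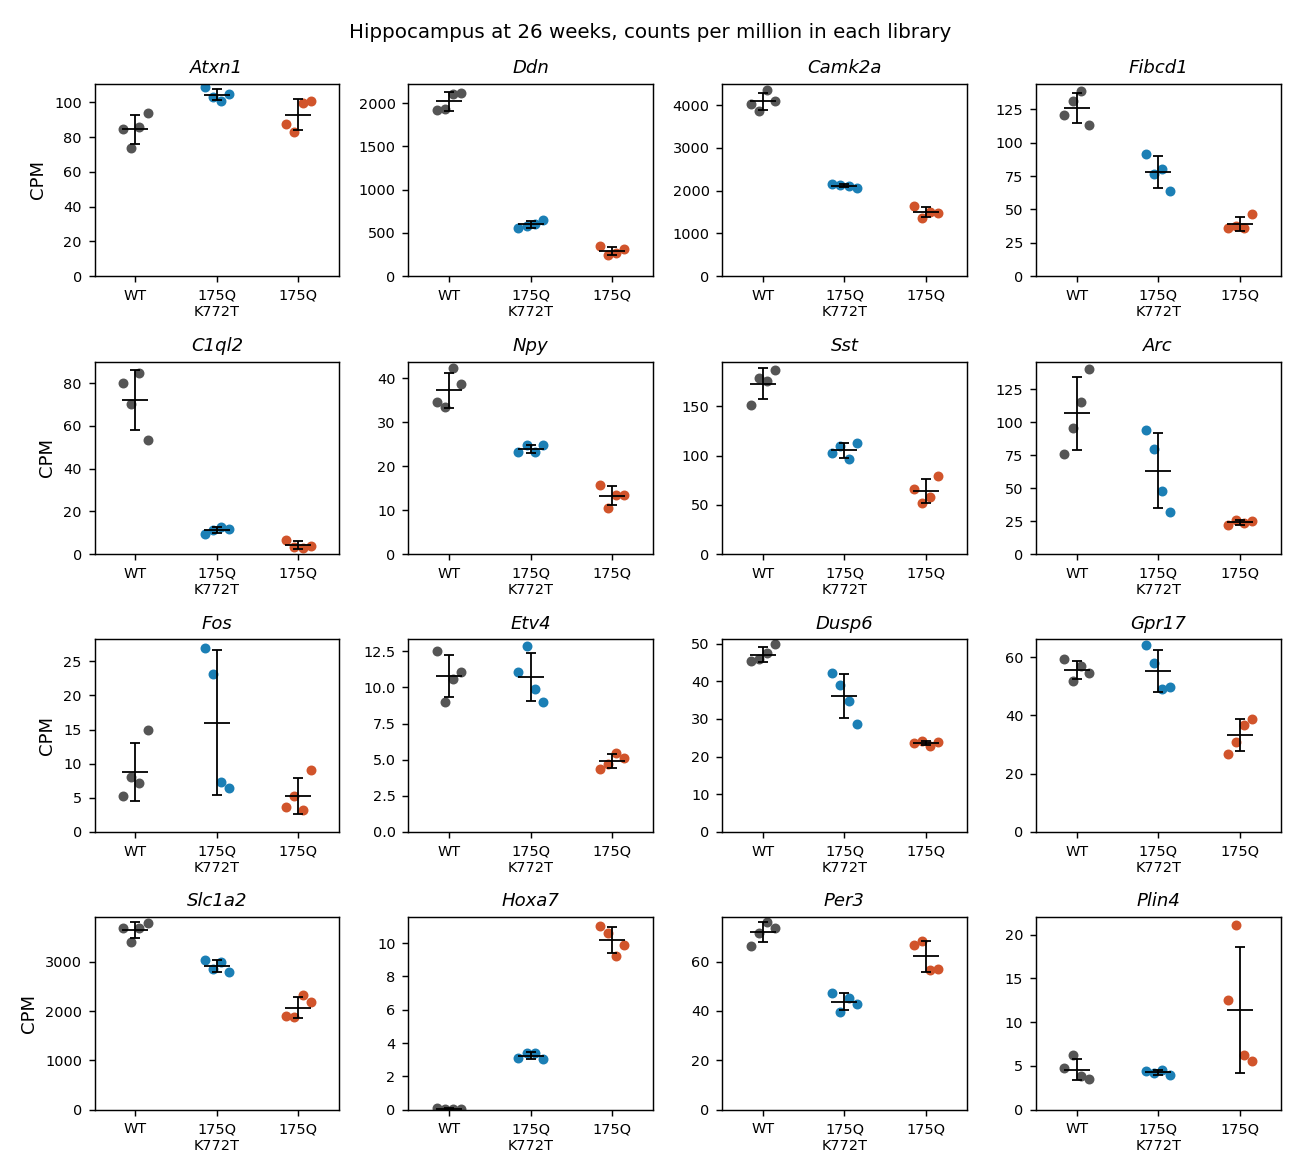
CPM of 16 genes in each of the 12 hippocampus libraries, 1 point per mouse (replicates 1 to 4 from left to right in a group), with the group mean and SD (n = 4) in black, and axes that start at 0. For Ddn, Camk2a, Fibcd1, C1ql2, Npy, Sst and Slc1a2 the 175QK772T libraries lie between the other genotypes, for Etv4 and Gpr17 they overlap WT, for Fos they are split between replicates 1 and 2 and replicates 3 and 4, and for Per3 they lie below both other genotypes.

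Markers of the principal cells of the hippocampal fields were tested as the check of the tissue and as a result. Prox1 of dentate granule cells and Wfs1 of CA1 were present in every library, at means of 74.9 and 55.7 CPM in 175QK772T. Dentate granule cell markers rose in 7 of 12 cases (median 0.39), where 8.88% of all genes rose. The count was 6 without the 3 libraries of highest Ttr and 4 without 175QK772T replicate 2. C1ql2, a secreted organiser of mossy fibre synapses, lay at 9.53, 11.3, 12.7 and 11.8 CPM in 175QK772T, at 6.79, 3.3, 2.68 and 3.55 CPM in 175Q and at 53.4 to 84.7 CPM in WT. It rose between the mutants (1.47 ± 0.23, edgeR adjusted p = 0.00104), with every 175QK772T library still far below every WT library. Lct, the lactase gene that granule cells express, was at 9.78, 9.36, 9.17 and 5.29 CPM in 175QK772T and at 3.64, 3.21, 3.36 and 1.81 CPM in 175Q (1.47 ± 0.21, adjusted p = 0.000576). C1ql3 (0.57 ± 0.08), the channel gene Trpc6 (0.65 ± 0.16) and Calb1, the calcium buffer calbindin (0.46 ± 0.13), rose, and Prox1 itself, the factor of granule cell identity, did not pass (75.8, 75.3, 81.6 and 66.7 against 75.9, 68.1, 76.8 and 59.5 CPM, 0.09 ± 0.10, adjusted p = 0.56).

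CA1 pyramidal markers rose in 6 of 10 cases (median 0.38), where 8.88% of all genes rose. The count was 6 also without the 3 libraries of highest Ttr. Fibcd1 lay at 91.9, 76.6, 80 and 63.6 CPM in 175QK772T, at 36, 37.5, 35.9 and 46.7 CPM in 175Q and at 113 to 139 CPM in WT, in 3 separate ranges (1.00 ± 0.10, edgeR adjusted p = 5.91e-05). Spink8 (0.73 ± 0.12), Gpr161 (0.47 ± 0.08) and Wfs1 (0.44 ± 0.10) rose as well. Of 12 markers of CA2 and CA3, 4 rose (median 0.16), led by Rgs14, a brake on plasticity in CA2 (41.3, 42.6, 46.8 and 40.9 against 32.1, 26.4, 27.6 and 31.9 CPM, 0.54 ± 0.08, adjusted p = 0.000704). The CA2 and CA3 count was 2 without 175QK772T replicate 2, without 175QK772T replicate 4, without 175Q replicate 4, without the 3 libraries of highest Ttr and in the 8 libraries alone.

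Adult neurogenesis genes rose in 5 of 12 cases (median 0.47), where 8.88% of all genes rose. Nes, the filament of neural stem cells, lay at 13.3, 11.1, 10 and 11.2 CPM in 175QK772T and at 6.63, 7.36, 9.08 and 6.29 CPM in 175Q (0.63 ± 0.11, edgeR adjusted p = 0.00237), without overlap. Sox11 of newborn neurons rose (0.45 ± 0.09), whereas Dcx, the marker of migrating neuroblasts, overlapped between the mutants (-0.08 ± 0.10, adjusted p = 0.662) and the proliferation marker Mki67 did not pass (0.56 ± 0.27, adjusted p = 0.176). The count was 3 without 175QK772T replicate 1, without 175QK772T replicate 3 and without the 3 libraries of highest Ttr, and 2 without 175QK772T replicate 2 and without 175Q replicate 4.

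Glial genes were read by cell type. Astrocyte markers rose in 8 of 12 cases (median 0.24), and in 10 without the 3 libraries of highest Ttr: the glutamate transporter gene Slc1a2 lay at 3040, 2850, 2990 and 2790 CPM in 175QK772T and at 1910, 1880, 2320 and 2190 CPM in 175Q (0.50 ± 0.06, edgeR adjusted p = 0.00016), and the water channel gene Aqp4 at 153, 160, 165 and 145 against 108, 123, 131 and 123 CPM (0.36 ± 0.05). Neither overlapped between the mutants. Reactive astrocyte genes gave 1 rise of 12, a share near the 8.88% of all genes that rose. It was Cd44 (0.63 ± 0.20, adjusted p = 0.0457), and Gfap did not pass (0.15 ± 0.07, adjusted p = 0.17). The Cd44 call was lost under 8 alternatives. Microglia markers rose in 5 of 13 (median 0.22), among them C1qb of complement (0.33 ± 0.06), Tmem119 (0.30 ± 0.06) and Cx3cr1 (0.22 ± 0.05).

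Oligodendrocyte precursor genes rose in 6 of 12 cases and fell in 1 (median 0.27), where 8.88% of all genes rose and 6.8% fell. The share of falls is thus near that of all genes. Gpr17, a receptor of cells committed to becoming oligodendrocytes, lay at 64.2, 57.9, 49.1 and 49.8 CPM in 175QK772T, at 26.9, 30.9, 36.8 and 38.9 CPM in 175Q and at 51.9 to 59.3 CPM in WT, so that 175QK772T overlapped WT and not 175Q (0.73 ± 0.06, edgeR adjusted p = 3.96e-05). Cspg4, the proteoglycan NG2 (29.9, 27.7, 29.7 and 29.2 against 20.6, 18.7, 21 and 21.2 CPM), rose by 0.51 ± 0.06, and Pdgfra by 0.30 ± 0.07. Enpp6, a mark of newly forming oligodendrocytes, was the fall (-0.51 ± 0.15, adjusted p = 0.0335), a call that was lost without 175QK772T replicates 1, 2 or 4 or 175Q replicates 2 or 3, each in turn, and without the 3 libraries of highest Ttr. None of 12 mature oligodendrocyte genes passed in the fit reported here (median -0.08).

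Of 13 chaperone genes 3 rose, where 8.88% of all genes rose, and the list median was -0.02. Among them were Hsph1, a partner of Hsp70, at 297, 340, 286 and 279 CPM in 175QK772T and 219, 196, 240 and 234 CPM in 175Q (0.44 ± 0.05, edgeR adjusted p = 0.00022) and the inducible Hsp70 gene Hspa1b, at 3.19, 3.91, 2.76 and 4.58 against 1.93, 1.38, 1.68 and 2.23 CPM (1.01 ± 0.18). Cholesterol synthesis genes rose in 7 of 15 cases and fell in 1 (Lss, -0.24 ± 0.07), with a median of 0.15. Of all genes 8.88% rose and 6.8% fell, so the share of falls is near that of all genes. The rises numbered 3 without 175QK772T replicate 4 and without the 3 libraries of highest Ttr and 4 without 175Q replicate 1. Dhcr7 (0.33 ± 0.06) and Msmo1 (0.28 ± 0.05) had the smallest p-values of the cholesterol list. Of the ATXN1 partner genes 2 of 14 rose, among them Uhmk1, a serine/threonine kinase (0.19 ± 0.05, adjusted p = 0.0165), with a list median of 0.02. This share is near the 8.88% of all genes that rose. The number of rises was 1 with any single 175QK772T library left out, without 175Q replicate 2, without 175Q replicate 4 and without the 3 libraries of highest Ttr. Among nuclear import genes 0 of 11 passed (median -0.01), and the carrier gene Kpnb1 was at 204, 197, 206 and 199 CPM in 175QK772T and 208, 193, 211 and 201 CPM in 175Q (-0.01 ± 0.04).

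Circadian clock genes gave 4 falls and 1 rise of 14 (median -0.03), where 6.8% of all genes fell and 8.88% rose, and 4 or 5 falls under each alternative run. Per3, a clock repressor, lay at 47.4, 39.7, 45.2 and 42.8 CPM in 175QK772T, at 66.7, 68.5, 56.5 and 56.8 CPM in 175Q and at 66.3 to 76.1 CPM in WT (-0.50 ± 0.07 between the mutants, edgeR adjusted p = 0.000383). The 175QK772T libraries were thus below those of both other genotypes. Ciart was likewise lowest in 175QK772T, at 4.84, 5.06, 6.03 and 5.73 CPM against 10.5, 10.7, 7.24 and 9.72 in 175Q and 8.32 to 15.5 in WT (-0.81 ± 0.14, adjusted p = 0.00175). Cry1 (-0.44 ± 0.07) and the nuclear receptor gene Nr1d2 (-0.32 ± 0.05) fell and Npas2 rose (0.33 ± 0.07), while Per1, Per2, Clock and Cry2 did not pass. The labels give no time of day of dissection, and its part in these differences was not tested.

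Of 13 glucocorticoid response genes 3 fell and 1 rose (median -0.02), where 6.8% of all genes fell and 8.88% rose. The share of rises is thus near that of all genes. The falls numbered 2 by DESeq2 and without the 3 libraries of highest Ttr. Hif3a lay at 6.01, 4.91, 6.7 and 7.39 CPM in 175QK772T and at 14.4, 18.8, 10.3 and 12.8 CPM in 175Q (-1.16 ± 0.12, edgeR adjusted p = 9.85e-05). Plin4 was at 4.41, 4.21, 4.49 and 3.95 CPM in 175QK772T and at 12.5, 21.1, 6.24 and 5.57 CPM in 175Q, with the 2 male 175Q mice (replicates 1 and 2) highest and no overlap (-1.28 ± 0.30, adjusted p = 0.0103). Sgk1, a kinase induced by the hormone, fell with overlapping groups (-0.60 ± 0.18, adjusted p = 0.0392) and lost its call under 9 alternatives. Cdkn1a was the rise (0.67 ± 0.11), and Fkbp5, a standard readout of the hormone, averaged 30.7 and 30.4 CPM (0.02 ± 0.07, adjusted p = 0.889).

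Lists for neighbouring tissue were measured beside these. Choroid plexus genes had a median of -1.33 with 0 of 12 called. The direction rested on 1 library: the median was 0.64 without 175Q replicate 2 and 0.31 without the 3 libraries of highest Ttr, with 0 called in both, whereas with no filter on low counts 12 of 12 were called lower (median -1.33). Their summed level ran from 218 to 3430 CPM over WT, from 230 to 1570 CPM over 175QK772T and from 214 to 10700 CPM over 175Q libraries, none of its members was at 0 in all libraries, and Otx2, a defining gene, averaged 2.16 CPM in 175QK772T and 8.34 CPM in 175Q. Meningeal (median 0.40), ependymal (0.24) and thalamic (0.01) genes gave 0 calls in the fit reported here, endothelial markers 2 rises and 1 fall of 12, striatal markers 2 rises of 9, and cortical layer markers 4 rises of 10 (8.88% of all genes rose and 6.8% fell). The share of endothelial falls is near that of all genes. Cortical layer rises numbered 2 without 175QK772T replicate 1 or 3. Striatal rises numbered 1 without 175QK772T replicate 2 or 4, without 175Q replicate 3 or 4, and without the 3 libraries of highest Ttr. Endothelial rises numbered 1 without 175QK772T replicate 2 or 4. Without 175Q replicate 2, 4 of 6 ependymal and 2 of 12 meningeal genes rose. Interferon response genes had a median of -0.26 with 0 of 12 called. Neither did the 15 nuclear respiratory chain genes pass (median -0.02). Of 13 mitochondrially encoded genes 3 rose (median 0.12), 1 when any of 5 single libraries was left out (175QK772T replicates 2, 3 and 4 and 175Q replicates 1 and 3), and the share of counts from the mitochondrial genome was 5.46% ± 0.116 (SD, n = 4) in 175QK772T and 5.13% ± 0.275 in 175Q, which did not pass a two-sided exact permutation test (p = 0.0571, where the 70 assignments allow 0.0286 at the lowest).

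**Figure D4:**
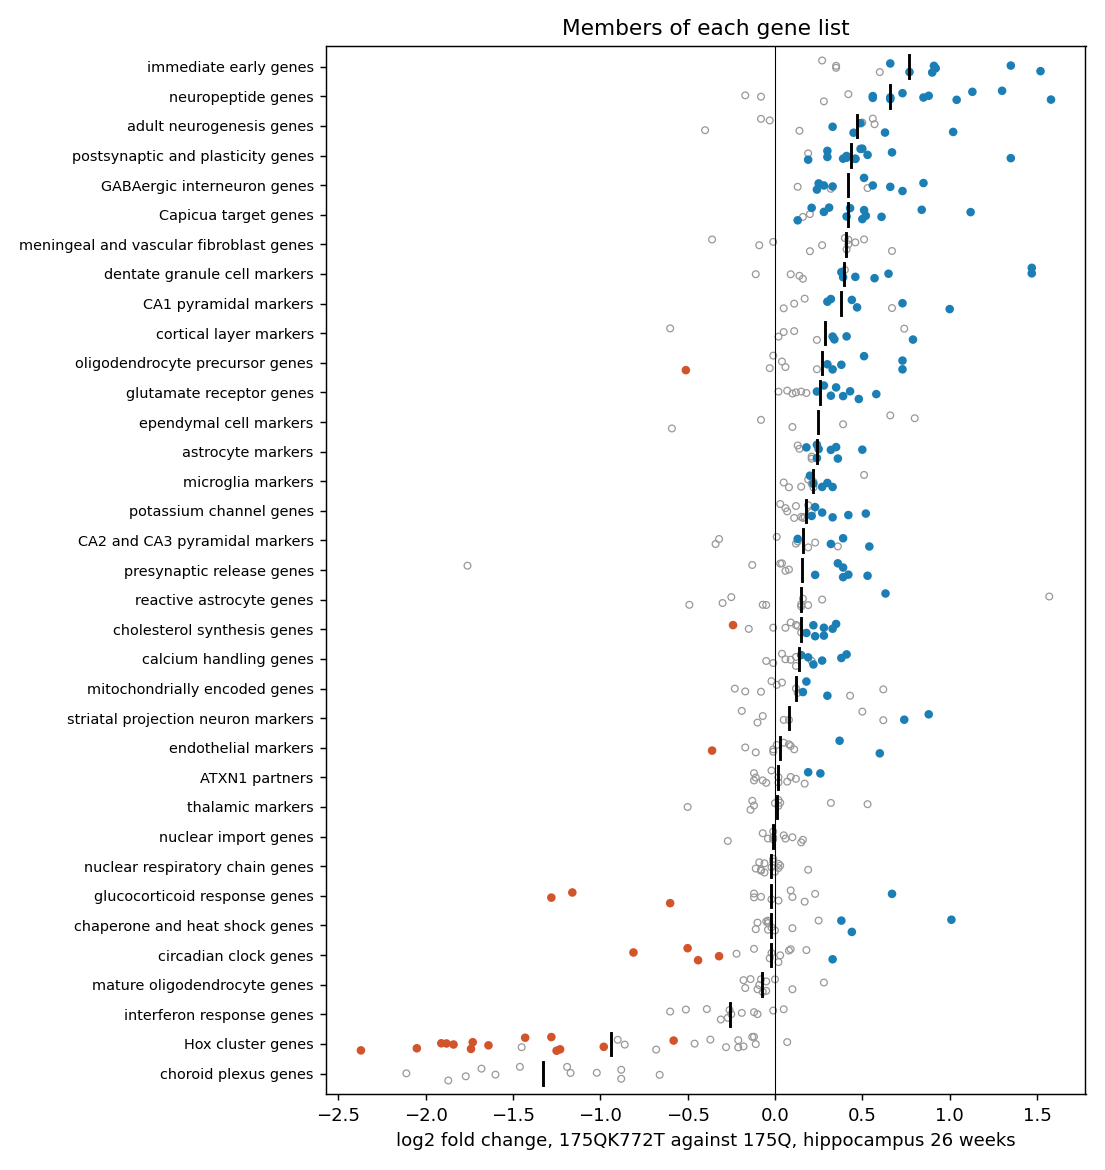
Log2 fold changes of 175QK772T against 175Q for the tested members of each gene list, 1 point per gene, filled where the gene was called (blue higher, orange lower in 175QK772T) and open where it was not, with a bar at the list's median and lists ordered by it. Filled blue points dominate the immediate early, neuropeptide, postsynaptic, GABAergic and Capicua target lists, and the filled orange points are mostly Hox and clock genes.

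Hippocampus of other mice at 10 weeks gave an independent view of the same genes. At that age 175Q differed from WT in 4132 of 21071 genes (19.6%), with 9.71% higher and 9.9% lower. By contrast, 175QK772T was called against 175Q in 7 (0.0332%): Dio2 and Ddn were higher (0.00949%) and Skor1, Hoxa5, Hoxd8, Twist1 and Tbx2 lower (0.0237%). At 26 weeks 6 of these 7 were called in the same direction, the exception being the corepressor gene Skor1 (12, 13.3, 12.2 and 11 against 19.4, 12.3, 13 and 12.2 CPM, -0.22 ± 0.16, edgeR adjusted p = 0.389). By edgeR's interaction test, described below, falls were smaller at 26 than at 10 weeks for Hoxa5 (-1.23 and -5.08, adjusted p = 0.00264) and Twist1 (-0.42 and -1.27, adjusted p = 0.0278). Ddn rose by more at 26 weeks (1.03 and 0.35, adjusted p = 0.00312). For Dio2, Hoxd8 and Tbx2 the interaction was not called. Among 3087 genes called at 26 weeks and tested at 10, 2473 (80.1%) had the same sign at 10 weeks, against 58% of the genes not called, with median log2 fold changes at 10 weeks of 0.068 for the rises and -0.044 for the falls. The count of 7 at 10 weeks was 116 by DESeq2 and 368 with no filter on low counts. It was 2 without 175QK772T replicate 1, without 175QK772T replicate 2 and without 175Q replicate 2, and 1 without 175QK772T replicate 4 and without 175Q replicate 1. At an unadjusted p below 0.05 edgeR counted 1589 genes (7.54%).

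Genes that 175Q had lowered in the 10-week mice were those most often higher in 175QK772T at 26 weeks. Of 2046 genes lower in 175Q than in WT at 10 weeks, 844 (41.3%) were called higher in 175QK772T than in 175Q at 26 weeks and 19 (0.929%) lower. Of 2010 genes higher in 175Q at 10 weeks, 411 (20.4%) were called lower and 56 (2.79%) higher. Genes not called at 10 weeks gave 5.53% higher and 5.8% lower. Seen from the 26-week side, the 844 made up 48% of the rises and the 411 made up 30.9% of the falls.

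**Figure D5:**
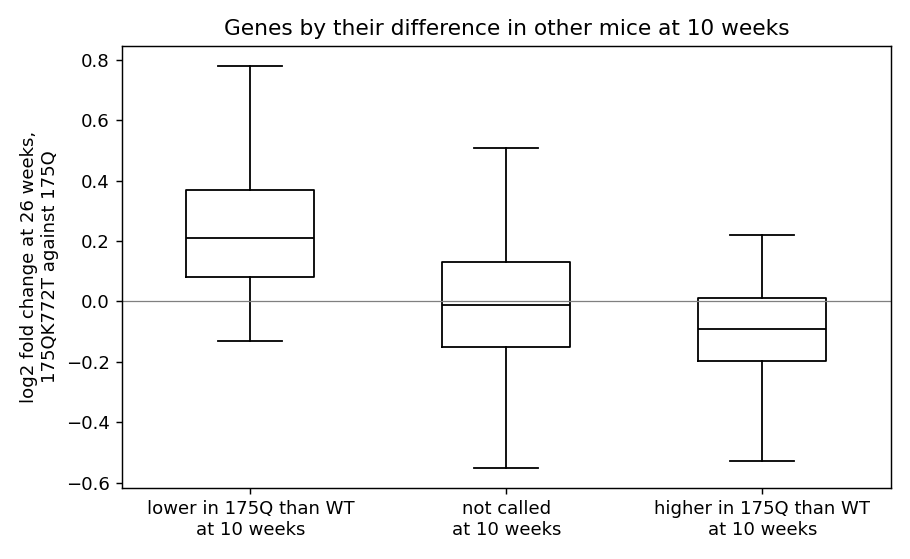
Log2 fold change of 175QK772T against 175Q at 26 weeks for genes grouped by their difference between 175Q and WT in other mice at 10 weeks (box: quartiles and median, whiskers: 5th and 95th percentiles). The median is 0.21 for genes lower in 175Q at 10 weeks, -0.01 for genes not called and -0.09 for genes higher in 175Q.

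The change of the difference between ages was tested as an interaction over 24 hippocampus libraries. It was called for 518 of 21806 genes (2.38%), 373 with a higher log2 fold change at 26 than at 10 weeks (1.71%) and 145 with a lower one (0.665%). Sign and not size is counted, so the 373 include falls that were smaller at 26 weeks, as in Hoxa5, Twist1 and Skor1. Skor1 went from -1.5 at 10 weeks to -0.22 at 26 weeks (interaction 1.22, edgeR adjusted p = 0.0162). The count of 518 was 210 without 175QK772T replicate 2 of 26 weeks, 290 without 175QK772T replicate 4 of 10 weeks and 329 without 175Q replicate 3 of 10 weeks. Per the labels' protocols each age was its own batch of library preparation and sequencing, and both hold all 3 genotypes, so a batch difference shared by the genotypes cancels in the interaction and one that differs between them cannot be told apart from age. Lrrtm1, a synaptic adhesion gene, gave log2 fold changes of 0.58 ± 0.05 at 26 weeks and 0.10 at 10 weeks (interaction 0.50, edgeR adjusted p = 0.00103). At 26 weeks it lay at 64.1, 69.6, 63.8 and 63.2 CPM in 175QK772T and at 48.7, 41.8, 41.4 and 42.5 CPM in 175Q. Basp1, an abundant growth cone protein's gene, went from -0.21 at 10 weeks to 0.28 at 26 weeks (interaction 0.51, adjusted p = 0.00103). Tmem132a (0.48), the amino acid transporter relative Slc7a4 (0.42) and Tmem121b (0.66) completed the 5 of smallest p, all with a higher log2 fold change at 26 weeks.

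Across regions at 26 weeks, 175QK772T differed from 175Q in 688 genes of the cortex (3.46%), 2674 of the striatum (13.6%), 1872 of the medulla (9.46%) and 19 of the cerebellum (0.0992%). The regions come from the same mice, and a count in one and not in another does not show a difference. The difference between hippocampus and cortex was tested with the mouse as a block, and 0 of 20858 genes passed in edgeR (0%), with 558 (2.68%) at an unadjusted p below 0.05, a smallest adjusted p of 0.131 and 1 call by DESeq2. For single genes the log2 fold changes in the cortex were 0.73 for Mfge8 (adjusted p = 0.0733), 0.86 for Ddn (adjusted p = 0.0957), 2.2 for Arc (adjusted p = 0.0592) and 0.83 for Etv4 (adjusted p = 0.00285). In the striatum Ddn rose by 1.07 (adjusted p = 3.84e-05), Mfge8 by 0.76 (adjusted p = 2.35e-05) and Camk2a by 0.73 (adjusted p = 0.00933). Hox genes were read in the other regions too. In the cortex 2 of 23 tested fell (1.54% of all genes fell), Hoxb9 (-1.33, adjusted p = 0.0171) and Hoxd9 (-1.66, adjusted p = 0.0151), and 0 rose. In the striatum 2 of 13 rose (7.28% of all genes rose), Hoxc4 (1.19, adjusted p = 0.0106) and Hoxc5 (1.00, adjusted p = 0.0358), and 0 fell, with Hoxd9 at 0.40 (adjusted p = 0.651) and Hoxd8 at 0.38 (adjusted p = 0.322). In the medulla, a part of the hindbrain, 7 of 23 rose (5.34% of all genes rose), among them Hoxa5 (0.44, adjusted p = 0.00357), Hoxb8 (0.69, adjusted p = 0.00986) and Hoxb7 (0.60, adjusted p = 0.011), and 1 fell (4.12% of all genes fell), Hoxa7 (-0.61, adjusted p = 0.00229). Hoxa5, Hoxb7 and Hoxb8 were falls in the hippocampus. Differences of hippocampus from striatum and medulla were not tested.

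Among genes with a RefSeq promoter, the 55 rises of at least 2-fold had a median of 6 CpG dinucleotides in the 300 bases and a median level of 1.13 CPM, and the 61 falls of at least 2-fold had 8 and 0.765 CPM. All called rises had a median of 20 CpG and 52.2 CPM, all called falls 20 and 30.3 CPM, and genes not called 19 and 17.4 CPM. These medians are descriptions, and the difference between the sets was not tested.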

How the data were processed

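Per the labels' protocols, poly(A) libraries of dissected brain regions were sequenced from both ends. The counts are whole read pairs per gene that the authors deposited for 55573 genes in 2 tables, one per age. Per the submitters' processing notes, bcl2fastq 2.20.0, Trimmomatic 0.33, HISAT2 2.1.0 and featureCounts of Subread 1.6.2 were used with GRCm38. The command that would give the strand setting and annotation is recorded per the file headers for 10 weeks, and for 26 weeks it is not given in the sources used here, so overlapping and antisense genes are uncertain.

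Genotypes, sexes and replicates were taken from the labels. The 12 hippocampus libraries of 26 weeks (30186577 to 53145285 counts) were fitted together in edgeR 4.0.16 (R 4.3.3, limma 3.58.1) with filterByExpr, TMM scaling, genotype and sex, with calls at a p below 0.05 after Benjamini-Hochberg adjustment over all genes tested. Ages (74216136 to 101684969 counts at 10 weeks) were compared by an interaction over 24 libraries, and regions by an interaction with the mouse as a block. The mitochondrial share was compared by an exact permutation test. The script was tested on simulated data. DESeq2 1.42.0, RLE scaling, no filter, no sex term, a replicate block, the 8 mutant libraries alone and leaving out each library were tried as alternatives, and leaving out the 3 libraries with Ttr above 500 CPM was added after seeing the data. Promoter sequences are RefSeq's, of GRCm38.p6.

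The comparison, members and gene lists were chosen with earlier results of these data known. The text names Atxn1, the 15 largest called rises and falls with a mean of at least 1 CPM and no overlap between the mutants, up to 4 members per list by smallest p, and up to 5 genes per interaction. Predicted genes, genes without a symbol, Y-linked genes, Xist and Tsix were left out, and some genes that the rule would name are not reported here. The genes of smallest p, the Hox list, further list members and the genes shown for other regions were chosen after their values were seen. Each group has 4 mice, and the p-values measure the spread between mice. In the main comparison the labels' mouse numbers place the mutant genotypes in separate ranges, with WT mice beside both. A difference between these ranges of mice cannot be told apart from genotype by the p-values between the mutants, and its part was not tested.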

Additional observations from a re-analysis of the deposited data

Results flagged for a closer look

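In 10 of 102 groups of 4 libraries 1 value stood far from the other values of its group, where chance gives about 1 in 20 for normally distributed values. These were Ttr at 2060 CPM in WT replicate 2 and at 7320 CPM in 175Q replicate 2, Ankrd63 at 2.25 CPM in 175Q replicate 4, Lct at 5.29 CPM in 175QK772T replicate 4, Lbx1 at 1.25 CPM in 175QK772T replicate 2, Sec14l3 at 1.57 CPM in WT replicate 3, and the mitochondrial share of counts at 4.98% in WT replicate 2. The other 3 were WT libraries with counts of genes that were at 0 in the rest of WT: Lbx1 at 0.028 CPM and Barx1 at 0.056 CPM in replicate 3, and Hoxd8 at 0.0646 CPM in replicate 4. In such a group any count is flagged, so these 3 cannot be set against that rate.

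The difference of 175QK772T against 175Q changed between 10 and 26 weeks for 518 genes by edgeR's interaction test. The 5 of smallest p were Lrrtm1 (interaction 0.50 on the log2 scale), Basp1 (0.51), Tmem132a (0.48), Slc7a4 (0.42) and Tmem121b (0.66), and in each the log2 fold change was higher at 26 weeks.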

How the results depend on the processing

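The count of genes that differed between 175QK772T and 175Q at 26 weeks (3107) was 3625 by DESeq2, 3071 with RLE scaling, 3685 with no filter on low counts, 3102 without the sex term, 2534 in the 8 mutant libraries alone, 2124 without the 3 libraries of highest Ttr, and 1982 to 3055 with 1 library left out. These totals hold newly called genes too. Of the 3107, 3048 (98.1%) stayed called by DESeq2, 2679 (86.2%) with no filter and 2444 (78.7%) in the 8 mutant libraries alone. With 1 library left out 1932 (62.2%) to 2507 (80.7%) stayed, and without the 3 libraries of highest Ttr 1868 (60.1%). None of the 3107 genes changed sign under these alternatives. Replicate numbers did not pair the mice (correlations of same-numbered deviations between the mutants from -0.204 to -0.055), and with a replicate block the count was 3338. The other counts with 1 library left out were 7183 to 7948 for 175Q against WT, 2797 to 3413 for 175QK772T against WT, 126 to 153 list members called (162 with all libraries), 1 to 9 for the mutants at 10 weeks, 210 to 705 for the age interaction and 0 for the region interaction. At 10 weeks DESeq2 called 116 genes, no filter 368 and the replicate block 2, against 7. The age interaction gave 1153 by DESeq2 and 1404 with no filter, against 518, and the region interaction gave 1 by DESeq2, against 0. The causes were not tested. The difference in mitochondrial share (0.335 percentage points) was 0.216 to 0.439 with 1 library left out. Without 175Q replicate 4 its exact permutation p was 0.0286, the smallest that the test allows with 1 library left out. Of 158 single genes tried, 116 of them called, 2181 values kept direction and side of the threshold, 118 lost the threshold, 70 gained it and 0 reversed.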
